A study of Oryza sativa with 3 samples.

Results

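The short arms of rice chromosomes 4 and 10 were examined for sites bound in vitro by OsWRKY11, one of the WRKY transcription factors of plants. Peaks were taken from the authors' lists by position alone: on chromosome 4 a summit from 1000001 to 8000000, and on chromosome 10 a summit from 1000001 to 6500000, 12.5 Mb in all. These intervals held 490 peaks of replicate 1, or 3.07% of its 15980, and 650 peaks of replicate 2, or 3.03% of its 21447. On chromosome 4 there were 245 and 331 such peaks in replicates 1 and 2, and on chromosome 10 there were 245 and 319. They were set against the long arms of the same chromosomes, taken from 20000001 to 34000000 for chromosome 4 and from 12000001 to 22000000 for chromosome 10, which held 1008 peaks in replicate 1 and 1401 in replicate 2 over 24.0 Mb. Positions are given as the authors listed them, and the build they refer to was not stated in the sources used here.

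The assay was DAP-seq, short for DNA affinity purification sequencing, in which a tagged protein made outside the cell captures fragments of purified genomic DNA that are then sequenced. The series held 3 libraries: 2 reactions with a fusion of OsWRKY11 and the Halo tag, called replicates 1 and 2, and 1 control reaction in which green fluorescent protein carried that tag (GFP-Halo). All used a library of genomic DNA fragments from seedlings of the cultivar Nipponbare, and the labels name no treatment or genotype that differs between the reactions. The labels' extraction text, the same for all 3 libraries, also describes formaldehyde fixation of shoots from plants that carry a Myc-tagged OsWRKY11 transgene, which is not a step of DAP-seq, and how it relates to these libraries is not stated; in vitro binding is taken here from the labels' treatment text. Each OsWRKY11-Halo library was called against the same GFP-Halo library, and the labels do not say whether the reactions came from separate preparations, so differences between replicates may be technical.

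Rice chromosomes 4 and 10 are known from cytology for short arms that stain largely as heterochromatin, with many retrotransposons and other repeats and few active genes, while their long arms are mostly euchromatic and rich in genes. WRKY proteins bind the W-box, a short promoter element. In a DAP-seq reaction on purified DNA there are no nucleosomes, so the packing of heterochromatin is absent, although DNA methylation stays on fragments that were not amplified. Repeats bear on such data in a further way, since reads that match several places cannot be placed uniquely. Neither amplification of the DNA library nor the treatment of such reads was stated in the sources used here, and the lists hold no chromatin mark or repeat annotation with which the heterochromatic label could be checked.

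The first comparison asked whether OsWRKY11 peaks were as frequent on the short arms as on the long arms. On chromosome 4 the short arm had fewer peaks per length in both lists. Its density was 35.0 peaks per Mb in replicate 1 (exact 95% Poisson interval 30.8 to 39.7), against 40.8 on the long arm (37.5 to 44.3). In replicate 2 the short arm of chromosome 4 had 47.3 peaks per Mb (42.3 to 52.7), against 54.1 on the long arm (50.3 to 58.1). The ratio of short-arm to long-arm density was thus 0.858 (0.736 to 0.998) and 0.875 (0.766 to 0.996), or 0.866 ± 0.0116 (mean ± SD, n = 2 lists). Chromosome 10 showed no common direction. Its short arm had 44.5 peaks per Mb in replicate 1 (39.1 to 50.5), against 43.7 on the long arm (39.7 to 48.0), and 58.0 in replicate 2 (51.8 to 64.7), against 64.4 on the long arm (59.5 to 69.6). These ratios were 1.02 (0.868 to 1.19) and 0.901 (0.785 to 1.03), with a mean of 0.960 ± 0.0840 (SD, n = 2 lists).

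Over both chromosomes the short arms had 39.2 peaks per Mb against 42.0 on the long arms in replicate 1, a ratio of 0.933 (0.836 to 1.04), and 52.0 against 58.4 in replicate 2, a ratio of 0.891 (0.810 to 0.978). None of the density differences passed an exact conditional test of 2 Poisson counts (two-sided) after Benjamini-Hochberg adjustment over the 36 tests described here. For chromosome 4 the unadjusted p was 0.0450 and 0.0428 and the adjusted p 0.405 in both lists. For both chromosomes in replicate 2, p was 0.0146 and the adjusted p 0.279. Against all other peaks of the series, which lay at 43.0 and 57.7 per Mb, the density on the short arm of chromosome 4 was 0.814 and 0.820 times as high, and this difference passed the test in both lists (exact test, adjusted p = 0.0216 and 0.00853). Peaks were clustered, with a variance over mean of 1.51 and 1.03 among the 1 Mb windows on the short arm of chromosome 4 and of 2.15 and 2.53 among all windows, so that these p-values are too small; they describe the lists and not repeated experiments.

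Counts in single windows gave the same order on chromosome 4. The 7 whole 1 Mb windows on the short arm of chromosome 4 held between 25 and 45 peaks in replicate 1, with a median of 36, against 29 to 52 and a median of 41.5 in the 14 windows on the long arm. In replicate 2 they held between 39 and 58, with a median of 46, against 41 to 67 and a median of 55 on the long arm. The ranges of the arms overlapped. In both lists 6 of the 7 short-arm windows lay below the median of all windows of the list (43 and 57), and on the long arm 7 and 8 of the 14 did. The emptiest short-arm windows were 6000001 to 7000000 in replicate 1, with 25 peaks, and 7000001 to 8000000 in replicate 2, with 39; in their lists, 2.72% and 3.83% of windows held fewer. On chromosome 10 the window from 2000001 to 3000000 was the fullest of the short arms, with 55 and 77 peaks, and 88.9% and 93.2% of the windows of the lists held fewer. The next window, 3000001 to 4000000, had 51 and 61 peaks, and 79.1% and 60.9% of windows held fewer. The window from 4000001 to 5000000 had 30 peaks in replicate 1, where 5.98% of windows held fewer, and 51 in replicate 2, where 26.8% held fewer.

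**Figure D1:**
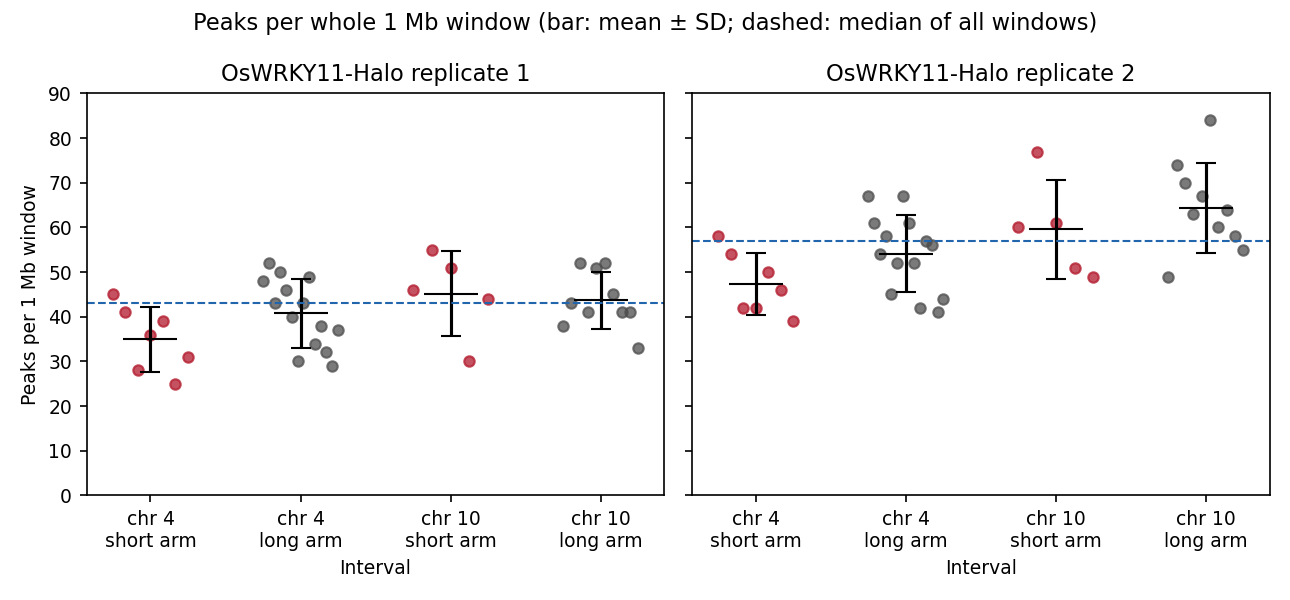
Peaks in each whole 1 Mb window (vertical axis, number of peaks) of the short and long arms of chromosomes 4 and 10, one panel per replicate, points from left to right in chromosome order, bars for the mean ± SD of windows and a dashed line at the median of all windows of the list. In both panels 6 of the 7 windows of the short arm of chromosome 4 lie below the dashed line, and the ranges of the arms overlap.

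Along both short arms the outer stretch had the higher density of peaks. On chromosome 4 the outer 3.0 Mb (1000001 to 4000000) had 38.0 and 51.3 peaks per Mb in replicates 1 and 2, and the inner 4.0 Mb (4000001 to 8000000) had 32.8 and 44.3. On chromosome 10 the outer 2.0 Mb (1000001 to 3000000) had 50.5 and 68.5 peaks per Mb, and the inner 3.5 Mb (3000001 to 6500000) had 41.1 and 52.0. That outer stretch ended with the fullest short-arm window, 2000001 to 3000000. The long arms were not split in this way, so the order has no long-arm reference, and it was not tested. The exact Poisson intervals of outer and inner stretches overlapped in each case; the nearest bounds were 57.5 and 60.1 per Mb, on chromosome 10 in replicate 2. The longest stretch with no summit in either list ran from 7613473 to 7750575 on chromosome 4, over 137 kb. It was the only such stretch of at least 100 kb in the 4 intervals, and the next longest on the short arms measured 78.6 kb; on the long arms the longest measured 96.2 kb.

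The second comparison asked how often a short-arm peak was found again in the other reaction. A peak was said to have a partner when its overlap with a peak of the other list came to 50% or more of the shorter of them, the one with the nearest summit being taken. On the short arms 75 of 490 replicate 1 peaks had a partner (15.3%, 95% Wilson interval 12.4% to 18.8%), against 190 of 1008 on the long arms (18.8%, 16.6% to 21.4%); over the whole list the share was 17.6%. In replicate 2 the short arms had 75 of 650 (11.5%, 9.31% to 14.2%), against 192 of 1401 on the long arms (13.7%, 12% to 15.6%), with 13.1% over the whole list. The odds ratio of short over long arms was 0.778 (0.573 to 1.05) and 0.821 (0.609 to 1.10). With this overlap rule and all peaks it lay below 1 in each list and on each chromosome. With summits within 100 bp it was 1.05 and 1.02 on chromosome 4. When 50% of both peaks had to overlap, it turned above 1 on chromosome 10 in replicate 2. Among peaks with a fold of at least 3, a setting added after the values were seen, it was 1.26 on chromosome 10 in replicate 1. No difference passed Fisher's exact test (two-sided p = 0.0972 and 0.181 over both chromosomes, adjusted p = 0.617 in each). An odds ratio as low as 0.573 is still within the interval.

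By chromosome, 35 of 245 short-arm peaks of chromosome 4 had a partner in replicate 1 (14.3%), against 106 of 571 on the long arm (18.6%). In replicate 2 the counts were 35 of 331 (10.6%) on the short arm, against 106 of 757 (14%) on the long arm. The short arm of chromosome 10 had 40 of 245 (16.3%) in replicate 1, against 84 of 437 (19.2%) on the long arm, and 40 of 319 (12.5%) in replicate 2, against 86 of 644 (13.4%). These shares are not free of density: the chance of an overlap grows with the part of the arm that the other list covers. Peaks covered 0.725% and 0.917% of the short arms in replicates 1 and 2, against 0.827% and 1.10% of the long arms, and the part of coverage in the shares was not tested. Counted per length, replicate 1 peaks with a partner stood at 6 per Mb on the short arms, against 7.92 on the long arms, and on chromosome 4 at 5 against 7.57. The ratio for chromosome 4 was 0.660 (0.437 to 0.976), in a comparison added after the values were seen that did not pass (exact p = 0.0321, adjusted p = 0.301). The windows ranged from 2 such peaks, between 5000001 and 6000000 on chromosome 4, to 9, in the second megabase of either chromosome.

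On the short arms as elsewhere, recovery was higher at higher pileup, which counts the OsWRKY11-Halo fragments lying over a summit. Of the short-arm peaks of replicate 1, 4.93% (11 of 223) had a partner at pileups of 8 to 10, 18.8% (42 of 224) at 11 to 14 and 50% (21 of 42) at 15 to 39. The long arms had 12.3%, 20.6% and 44.6% in these classes, and the whole list 9.99%, 19.6% and 45.1%. In replicate 2 the short arms had 8.25% (25 of 303), 12.4% (38 of 306) and 28.2% (11 of 39), against 6.63%, 16.1% and 42.1% on the long arms. The whole list of replicate 2 had 7.35%, 14.8% and 35.2%. The order of the arms in the lowest and the highest of these classes thus differed between replicates, and the classes were not tested singly.

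**Figure D2:**
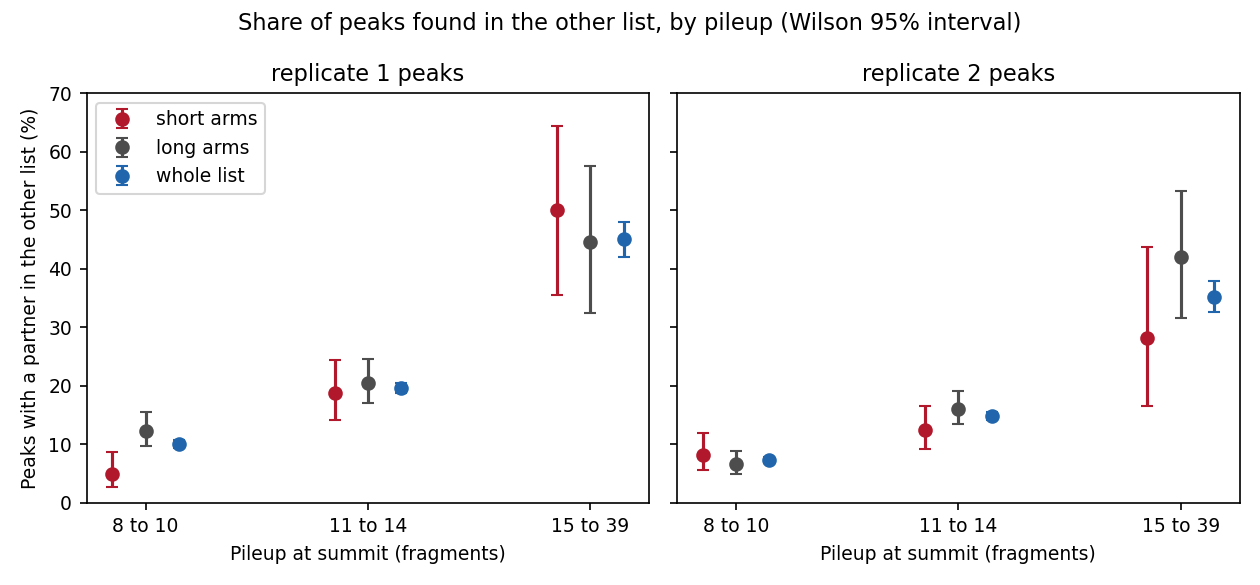
Share of peaks with a partner in the other list (vertical axis, percent) by pileup class (horizontal axis, fragments), with Wilson 95% intervals, for the short arms, the long arms and the whole list, one panel per replicate. On the short arms the share runs over 4.93%, 18.8% and 50% in replicate 1 and over 8.25%, 12.4% and 28.2% in replicate 2, and the order of short and long arms in the outer classes differs between the panels.

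The third comparison concerned the height of the peaks. The typical short-arm peak was as shallow as any other: the median pileup was 11 fragments with quartiles of 10 and 12 on the short arms, on the long arms and in the whole list, in both replicates. Counting error at this depth is wide, since 16 fragments carry a 95% interval (exact, Poisson) of 9.15 to 25.98. At pileups of at least 15 the odds ratio of short over long arms was above 1 on chromosome 10 and below 1 on chromosome 4, but no difference passed the test, and the direction on chromosome 10 depended on the setting. There it was 0.762 in replicate 1 at pileups of at least 20, and 0.678 in replicate 2 with 1 Mb trimmed from both ends of the intervals. All 7 replicate 1 peaks with a pileup of at least 20 on the long arm of chromosome 10 also reached 40. Among peaks with a pileup under 40, the odds ratio at pileups of at least 15 rose to 2.58 in replicate 1 (1.40 to 4.83). It did not pass (Fisher's exact p = 0.00140, adjusted p = 0.0504). On chromosome 10, 30 of 245 short-arm peaks reached a pileup of 15 in replicate 1 (12.2%, Wilson interval 8.71% to 16.9%), against 29 of 437 on the long arm (6.64%, 4.66% to 9.37%), and 7.87% did so over the whole list. The odds ratio was 1.96 (1.11 to 3.48), with a two-sided Fisher's exact p of 0.0155 and an adjusted p of 0.279. In replicate 2 the shares on chromosome 10 were 7.52% (24 of 319) and 6.37% (41 of 644), an odds ratio of 1.20 (0.678 to 2.07), beside 6.82% over the list.

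On chromosome 4 the short arm had 13 of 245 such peaks in replicate 1 (5.31%), against 41 of 571 on the long arm (7.18%), and 17 of 331 in replicate 2 (5.14%), against 55 of 757 (7.27%). The odds ratios were 0.725 (0.349 to 1.41) and 0.691 (0.370 to 1.23). Whether the contrast of arms differed between the chromosomes was tested for each share and list, by Zelen's exact test of equal odds ratios. For density, Fisher's exact test compared counts of peaks without the lengths of the intervals. It thus cannot tell whether the density ratios differ, and nothing is concluded from it. None of the 12 exact tests passed. Among the shares the smallest p was that of pileup in replicate 1 (Zelen's exact test, p = 0.0254, adjusted p = 0.152). That adjusted p rests in part on the density tests.

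**Figure D3:**
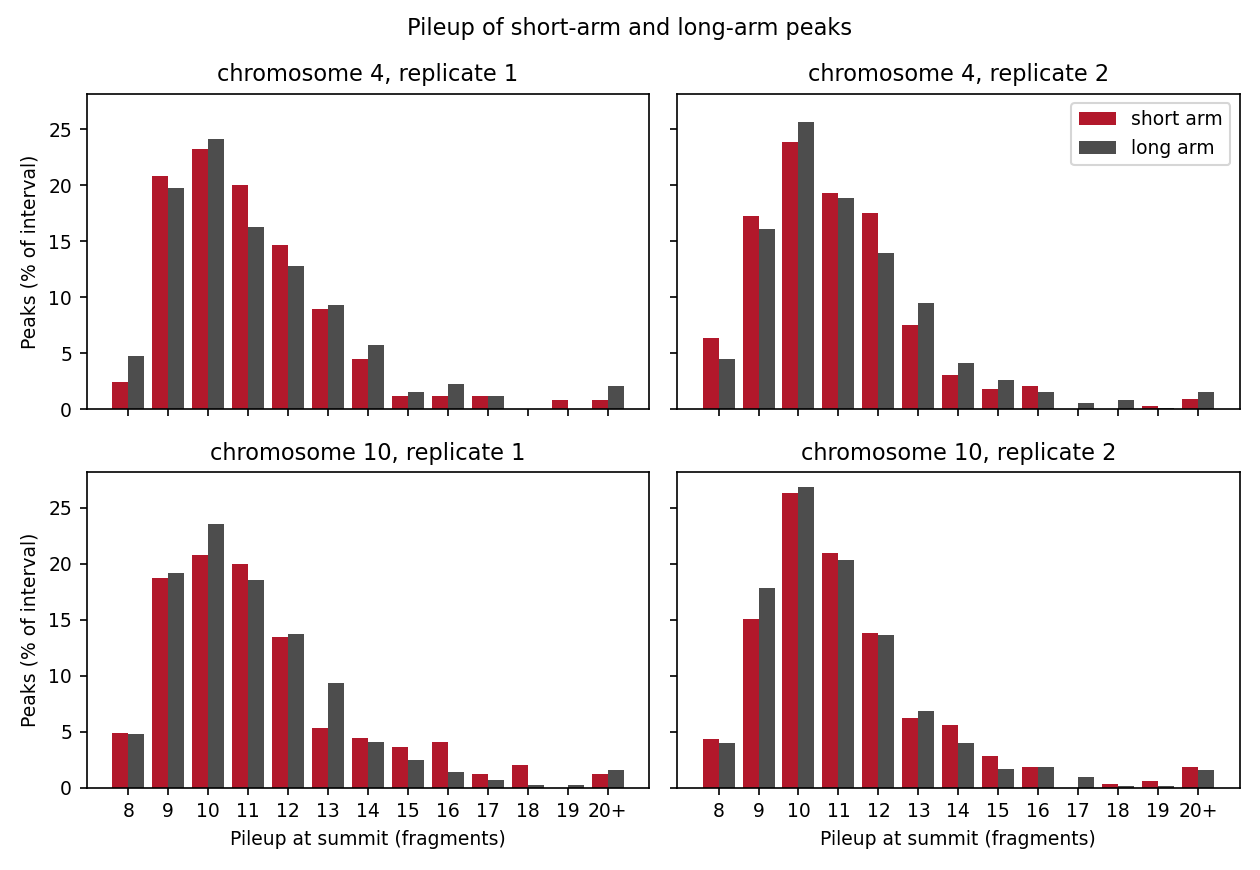
Percent of peaks of each interval (vertical axis) at each pileup (horizontal axis, fragments; 20+ holds all peaks of 20 and above), with short arms left of long arms, one panel per chromosome and replicate. All 4 panels have their mode at 10 fragments, and in replicate 1 of chromosome 10 the short-arm bars from 15 to 18 stand above those of the long arm.

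Very high pileups were rare on the short arms, and on the long arms they were rare outside 2 tracts. A pileup of at least 40 was found at 1 of 490 short-arm peaks in replicate 1 (0.204%, Wilson interval 0.0360% to 1.15%), against 14 of 1008 on the long arms (1.39%, 0.829% to 2.32%), where the whole list had 1.15%. In replicate 2 it was found at 2 of 650 (0.308%, 0.0844% to 1.11%), against 20 of 1401 (1.43%, 0.926% to 2.19%), with 1.04% over the list. The bound of 40 was known from earlier results of these data and the difference was not tested. Most long-arm peaks of this height lay in 2 close tracts, on chromosome 4 from 23638293 to 23659504 (6 peaks in replicate 1) and on chromosome 10 from 20466416 to 20484666 (6 peaks), so the counts are not of independent sites. The highest pileup was 59 and 55 on the short arms in replicates 1 and 2, against 324 and 341 on the long arms.

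The height of a peak is called relative to the control, and the background used in each call was recovered from the deposited pileup and fold enrichment. It is not a count of GFP-Halo fragments at the site, since 276 of 490 short-arm peaks in replicate 1 held the same lowest value. The lowest background in a list was 2.91 fragments in replicate 1 and 3.06 in replicate 2, a floor shared by many peaks. A background above that floor was found under 214 of 490 short-arm peaks in replicate 1 (43.7%), against 403 of 1008 on the long arms (39.98%) and 41.8% in the whole list. In replicate 2 it lay under 317 of 650 (48.8%), against 661 of 1401 (47.2%) and 47.2% in the list. The odds ratios of 1.16 (0.930 to 1.46) and 1.07 (0.881 to 1.29) did not pass Fisher's exact test (adjusted p = 0.617 and 0.766). Raised backgrounds were small in most cases, with a median of 3.34 fragments in replicate 1 and 3.43 in replicate 2 on the short arms, against 3.23 and 3.43 on the long arms. The highest background on the short arms was 3.53 and 8.41 times the floor in replicates 1 and 2, while on the long arms it reached 47.7 and 47.2 times the floor.

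The median fold enrichment was 2.81 in replicate 1 and 2.71 in replicate 2 on the short arms and on the long arms. A fold of at least 3 was reached by 39.6% of short-arm peaks in replicate 1, against 41.6% on the long arms and 40.7% in the list, with an odds ratio of 0.921 (0.734 to 1.15). The shares in replicate 2 were 24.9%, against 25.6% on the long arms and 26.1% in the list, with an odds ratio of 0.964 (0.772 to 1.20). Of the short-arm peaks, 137 of 490 in replicate 1 had a q-value of at most 0.05 (28.0%), against 311 of 1008 (30.9%) on the long arms and 29.9% in the list. In replicate 2 it was reached by 171 of 650 (26.3%), against 385 of 1401 (27.5%) and 28.2% in the list. The odds ratios were 0.870 (0.680 to 1.11) and 0.942 (0.758 to 1.17), and neither measure passed Fisher's exact test (adjusted p between 0.617 and 0.863 over both chromosomes). Of all 36 tests of the 6 measures, 0 passed after Benjamini-Hochberg adjustment and 4 had an unadjusted p under 0.05. The intervals still allow the odds of a fold of at least 3 to be 0.734 times those of the long arms.

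**Figure D4:**
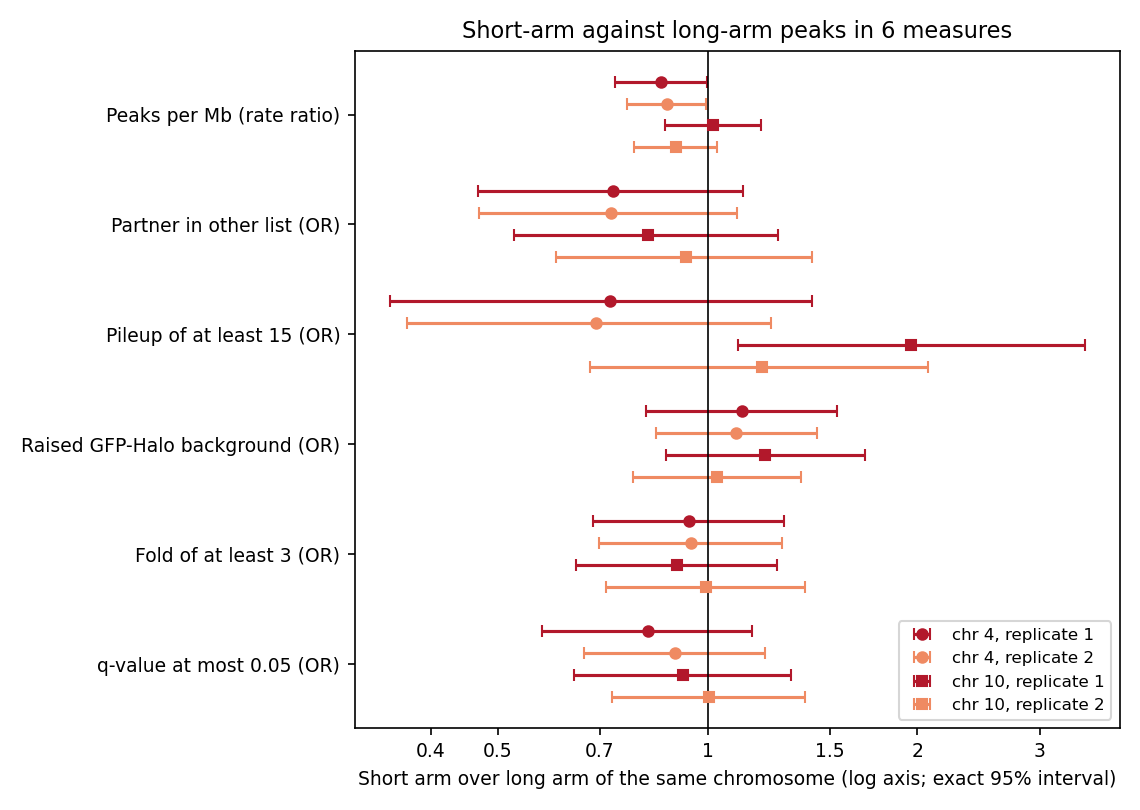
Ratio of short arm over long arm (horizontal log axis) with exact 95% intervals for peak density (rate ratio) and for 5 shares of peaks (odds ratios, OR), by chromosome and replicate. Density on chromosome 4 lies at 0.858 and 0.875, partner shares lie below 1 in all 4 rows, and pileups of at least 15 lie below 1 on chromosome 4 and above 1 on chromosome 10.

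The sites found in both reactions were then described singly. The 75 paired peaks of replicate 1, 35 on chromosome 4 and 40 on chromosome 10, fell on 74 peaks of replicate 2. Their summits lay a median of 48 bp apart, and 55 of 75 pairs (73.3%) lay within 100 bp, against a median of 64.5 bp and 126 of 190 pairs (66.3%) on the long arms. Both folds reached 3 in 22 short-arm pairs (29.3%) and in 60 long-arm pairs (31.6%). Both folds reached 4 in 3 short-arm pairs, all on chromosome 10, and in 4 long-arm pairs. Replicate 1 had the higher fold in 53 of the 75 short-arm pairs and in 93 of the 190 long-arm pairs. Its lowest background was below that of replicate 2, so equal pileups over the lowest backgrounds give replicate 1 the higher fold. A pileup of 12, for example, gives 3.33 against 3.20. The part of this in the counts was not tested. The folds of paired peaks had a Spearman correlation of 0.460 on the short arms (75 pairs) and 0.280 on the long arms (190 pairs). Without the strongest replicate 2 peak it was 0.433 over 73 short-arm pairs. These correlations describe peaks of 1 pair of libraries that share their control, and their difference was not tested.

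**Figure D5:**
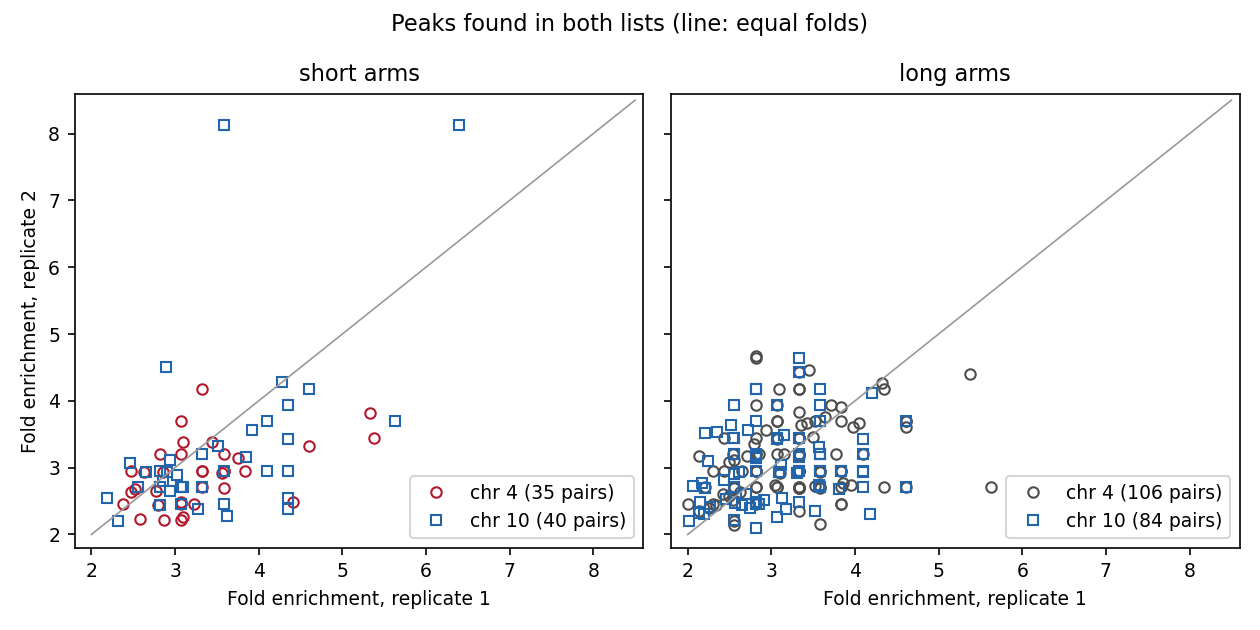
Fold enrichment over GFP-Halo of peaks found in both lists, replicate 1 on the horizontal and replicate 2 on the vertical axis, for the short arms (left) and long arms (right), with a line at equal folds. On the short arms 1 site of chromosome 10 stands apart at 6.40 and 8.12, and a neighbouring replicate 1 peak with a fold of 3.58 shares its replicate 2 peak.

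The strongest short-arm site lay on chromosome 10 at 6078877 to 6079100 in replicate 1 and at 6078442 to 6079230 in replicate 2. Its pileup was 24 (exact 95% Poisson interval 15.4 to 35.7) and 32 (21.9 to 45.2), and its fold enrichment 6.40 and 8.12 (7.26 ± 1.22, SD, n = 2), over the lowest background in both lists. Its summits coincided at 6078989, the only short-arm pair to do so. The broader replicate 2 peak of 789 bp also took in a further replicate 1 peak at 6078272 to 6078734, with a pileup of 13 and a summit 362 bp away, so that 2 peaks of replicate 1 met 1 of replicate 2. No other short-arm pair came near this enrichment in both lists.

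A site at 4310277 to 4310507 followed on chromosome 10. Its folds were 4.28 and 4.29 (4.28 ± 0.00320, SD, n = 2), its pileups 17 and 18, and its summits 3 bp apart. At 1510307 to 1510636 the folds were 4.61 and 4.18 (4.39 ± 0.298) with pileups of 17 and 16, and at 5377492 to 5377874 they were 4.35 and 3.94 (4.14 ± 0.291) with pileups of 16 and 15. Another site at 1544614 to 1545081 had folds of 5.63 and 3.69 (4.66 ± 1.37) and pileups of 21 and 14, and a site at 2001697 to 2002158 had the same lower fold of 3.69. All of these except 4310277 to 4310507 had the lowest background in both lists. Of the 4 sites given here with an SD, 1544614 to 1545081 was the one whose folds lay farthest apart between replicates.

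On chromosome 4 the leading site was of another kind. The peak at 2086426 to 2086560 had pileups of 59 (44.9 to 76.1) and 46 (33.7 to 61.4), the highest on that arm in each list. It stood on a background of 10.3 and 11.3 fragments, 3.53 and 3.70 times the floor, and its folds were 5.33 and 3.81 (4.57 ± 1.07, SD, n = 2) with summits 5 bp apart. It was the only short-arm pair with a pileup of at least 40. The site at 1729027 to 1729193 had folds of 5.37 and 3.45 (4.41 ± 1.36) over the lowest background, with pileups of 20 and 13. At 1082620 to 1082771 the folds were 3.44 and 3.39 (3.42 ± 0.0398), with pileups of 19 and 21 over backgrounds of 4.81 and 5.49 fragments. The sites at 7087937 to 7088378 and at 3490019 to 3490544 had folds of 3.33 and 4.18 (3.75 ± 0.606) and of 4.61 and 3.32 (3.96 ± 0.909). Of the 5 leading sites of chromosome 4, 4 lay in the outer 3.0 Mb of the interval, between 1082620 and 3490544.

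For scale, the leading pair of the long arm of chromosome 4, at 30506087 to 30506386, had folds of 5.37 and 4.40, and that of chromosome 10, at 18147083 to 18147902, had 4.199 and 4.12. By the weaker replicate, the strongest short-arm pair thus stood above the leading long-arm pair on chromosome 10 (6.40 against 4.12) and below it on chromosome 4 (3.81 against 4.40). These are single sites chosen by their rank, and no test was made of them.

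Some strong peaks had no partner, as in the rest of the lists. Of the 23 short-arm peaks with a fold of at least 4 in replicate 1, 15 had a partner (65.2%), against 54.1% on the long arms and 50.1% in the whole list. In replicate 2, 5 of 10 had one (50%), against 53.1% on the long arms and 42.9% in the list. The strongest short-arm peak without a partner, on chromosome 10 at 2008503 to 2008794 in replicate 2, had a fold of 4.92 and a pileup of 19, and the nearest replicate 1 summit lay 175 bp away without enough overlap. On chromosome 4 the highest fold of replicate 2, 4.18, was shared by 5 peaks, of which the one at 7088259 to 7088400 had a partner and 4 had none. The nearest replicate 1 summit to one of these 4, at 4381315 to 4381483, was 4706 bp away, and to another, at 6482616 to 6482836, it was 679 bp away. The highest pileup on the short arm of chromosome 10, 55 in replicate 2 at 2759181 to 2759460, was also alone: it stood on a background of 25.7 fragments, 8.41 times the floor, with a fold of only 2.09, and the nearest replicate 1 summit was 14646 bp away. The peaks nearest the bounds of the intervals were ordinary, with pileups of 8 to 13 just inside and 8 to 15 just outside.

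The share of peaks with a close neighbour was lower on the short arms than on the long arms in both lists. A further summit of the same list within 1 kb was found for 47 of 490 short-arm peaks in replicate 1 (9.59%, Wilson interval 7.29% to 12.5%), against 151 of 1008 on the long arms (14.98%, 12.9% to 17.3%) and 14.7% in the whole list. In replicate 2 the counts were 84 of 650 (12.9%, 10.6% to 15.7%), against 245 of 1401 (17.5%, 15.6% to 19.6%) and 15.7% in the list. By chromosome the shares in replicate 1 were 9.39% against 18.0% on chromosome 4 and 9.80% against 10.98% on chromosome 10, and in replicate 2 they were 11.8% against 18.2% and 14.1% against 16.6%. In replicate 2 the Wilson intervals of the arms overlapped on each chromosome and over both. In replicate 1 they overlapped on chromosome 10. They lay apart there on chromosome 4 (6.34% to 13.7% against 15.1% to 21.4%) and over both chromosomes. This spacing was looked at after the other values were known and was not tested, and neighbouring peaks are not independent. A close neighbour is also likelier where peaks are denser, and the long arm of chromosome 4 was denser than its short arm in both lists. The part of density in these shares was not tested.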

How the data were processed

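The data were 3 DAP-seq libraries, with 1 deposited peak list for each OsWRKY11-Halo library. The submitters' processing notes name MACS2 2.2.7.1, Trimmomatic 0.36 and BWA 0.7.12-r1039 without role or options; read totals, read filters and the genome build were not stated in the sources used here. Per the file headers, each deposited list has a pileup (a coverage signal of whole fragments), a fold enrichment ratio, and -log10 p-values and q-values. The deposited -log10 p was recomputed within 0.01 for 100% of peaks, as a Poisson tail of the pileup given the recovered background. The tail was taken with or without the pileup itself, whichever matched more peaks of a list. A pseudocount of 1 entered the background only. Scores are the authors' own for each peak. The lists hold no fold under 2.00, while q-values run up to 0.644 and 0.530.

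From these the background (pileup plus 1, divided by fold, minus 1; raised if over 0.001 above the lowest), partners, densities and shares were computed for each list. Densities were compared by exact conditional binomial tests and shares by Fisher's exact tests, two-sided, adjusted over 36 tests (6 measures, 2 lists, each chromosome and both). Intervals at 95% cover counting error only, since without molecular identifiers fragments may be copies of 1 molecule. Pairing, the tests of density and shares and Zelen's test were tried on simulated lists. Peaks there were scattered evenly at random, so the error rates found do not cover clustered peaks. Fisher's test of density between chromosomes was not tried in this way. Intervals, measures and bounds were chosen with earlier results of these data known. Named are the 5 pairs per short arm that rank first by the lower of their 2 folds, the highest pileup and fold of each list, the first pair of each long arm, and windows by count; the remaining peaks were singled out after their values were seen. No sequence or gene is named, as no genome in the build of the lists was used here. The tools were scipy 1.17.1, pandas 2.3.3, numpy 2.4.6 and matplotlib 3.10.9 under Python 3.11.15.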

Additional observations from a re-analysis of the deposited data

How the results depend on the processing

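Ratios of short over long arms were recomputed under 15 other settings, of which 2, peaks with a fold of at least 3 only for the partner share and peaks with a partner only for the density, were added after the values were seen. Of 210 recomputed values, 179 kept their direction and their side of the threshold, 28 changed direction and 3 passed the test where the reported value did not (exact tests, adjusted p). By the exact tests the 3 were the density on chromosome 4 against the rest of the series, 0.814 in replicate 1 and 0.820 in replicate 2, and the density on both chromosomes in replicate 2 without the fullest short-arm window, 0.854 (adjusted p = 0.0495). That window, 2000001 to 3000000 on chromosome 10, was picked for its count and none was left out on the long arms, so the ratio could only be lower and its p supports no difference. Leaving it out also turned the density ratio of chromosome 10 in replicate 1 to 0.966. None of the values that changed direction passed the test.

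With 1 Mb trimmed from each end of the intervals, 7 odds ratios turned in replicate 2: raised background 0.997, fold of at least 3 1.11 and q-value of at most 0.05 1.03 on chromosome 4, pileup of at least 15 0.678 and q-value 0.984 on chromosome 10, and fold 1.01 and q-value 1.01 on both. Against the rest of the series, replicate 2 gave 1.01 for fold on chromosome 4, and 1.01 for density and 0.876 for q-value on chromosome 10. With peaks limited to q-values up to 0.05, fold gave 2.67 on chromosome 4 and 1.24 on both in replicate 1, and 1.33 and 1.05 in replicate 2, while density and partner share on chromosome 10 in replicate 1 gave 0.963 and 1.01. The partner share turned to 1.01 on chromosome 10 in replicate 2 with 50% of both peaks overlapping, to 1.05 and 1.02 on chromosome 4 in replicates 1 and 2 with summits within 100 bp, and to 1.26 on chromosome 10 in replicate 1 among peaks with a fold of at least 3. Other bounds turned the pileup share in replicate 1 (at least 20) to 0.762 on chromosome 10 and 0.537 on both, the background share in replicate 1 (at least 1.5 times the floor) to 0.769 on chromosome 4, and the fold share on chromosome 10 (at least 3.5) to 1.03 in replicate 1 and 1.59 in replicate 2. The pileup share on both chromosomes in replicate 2 turned to 1.10 at pileups under 40, and the density on chromosome 10 in replicate 1 to 0.866 among peaks with a partner. The cause of these turns was not tested.

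Leaving out either list moved the mean density ratio between 0.858 and 0.875 on chromosome 4, between 0.901 and 1.02 on chromosome 10 and between 0.891 and 0.933 on both. No paired analysis was possible because the arms are compared within a list and the lone GFP-Halo library served both replicates. The median pileup of 11 and the number of peaks limit the precision: over both chromosomes the widest interval, of the share with a pileup of at least 15 in replicate 1, ran from 0.846 to 1.95.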

Other observations

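Looser groups of short-arm peaks, with at least 3 summits no more than 10 kb apart from one to the next, were listed after the other values were known. They took in 31.8% of peaks on the short arm of chromosome 4 in replicate 1, against 33.98% on its long arm, and 39.9% against 48.1% in replicate 2. On chromosome 10 the shares were 33.1% against 33.6% in replicate 1 and 41.1% against 53.4% in replicate 2. The largest short-arm group lay on chromosome 10 between 1992043 and 2015419, with 13 peaks in replicate 2, of which 4 had a partner. In replicate 1 a group of 7 peaks lay there, from 1992125 to 2008925, and 4 of them had a partner. The replicate 2 group contained the unpaired peak with a fold of 4.92. The largest group of replicate 1 on the short arms was another, from 3508368 to 3536621 on chromosome 10, with 9 peaks and 2 partners. No test was made of these groups, or of the part of density in their shares.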
